A study of Mus musculus with 6 samples.

Results

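Hdac1 and Nanog were found together, without Tgif1, Tgif2 or Smad3, in 1733 of the 32551 regions that 5 peak lists cover on mouse chromosomes 1 to 19. These 1733 places, called Hdac1-Nanog regions here, were found by merging all peaks of the 5 lists that share at least 1 bp. A merged region was kept when it held peaks of Hdac1 and of Nanog and none of the other 3 lists. They were 5.32% of all merged regions (95% Wilson interval 5.09 to 5.57). The regions were thus chosen by the peak calls of all 5 lists, and the number of regions and the strength of their Hdac1 and Nanog peaks are given as descriptions, with no test.

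The lists come from ChIP-seq, the sequencing of DNA that is pulled down with a protein after cross-linking, in a mouse embryonic stem cell line, J1. All cultures grew in serum and leukemia inhibitory factor and contained BirA, a bacterial enzyme that joins biotin to tagged proteins. Antibodies captured Hdac1, Tgif1 and Smad3. Streptavidin beads, which bind biotin, captured Nanog and Tgif2, and the biotin method is named in the study's design for Nanog only. There was 1 library, with 1 list, for each of the 5 factors. A further mock library of BirA cells was not analysed here, and no level from a control is given. Without replicates, no difference between groups of regions was tested, and none is called particular to the Hdac1-Nanog regions. The 95% intervals cover counting error over regions only, and regions of one pair of libraries are not replicates.

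Hdac1 is a histone deacetylase, an enzyme that removes acetyl groups from histones, and it works in several corepressor complexes, among them NuRD, Sin3 and CoREST. It has no DNA-binding domain of its own and is brought to chromatin by other proteins. Nanog, one of the pluripotency factors, is a homeodomain protein that binds DNA at enhancers of embryonic stem cells and is known to associate with Hdac1-containing complexes. Tgif1 and Tgif2 are homeodomain corepressors that recruit histone deacetylases and bind Smad proteins, and Smad3 is a transcription factor switched on by TGF-beta and Activin receptors. A peak list gives an average over the cells of a culture, so weak binding in all cells and strong binding in some of them cannot be told apart.

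Hdac1 and Nanog peaks shared 7335 merged regions, and in most of them a Tgif factor was also called. Of these regions, 5474 held Tgif1 or Tgif2 (74.6%, interval 73.6 to 75.6), whereas the 1733 Hdac1-Nanog regions made up 23.6% (22.7 to 24.6). The largest class held both paralogs without Smad3, with 3371 regions. Tgif2 without Tgif1 or Smad3 was present in 668 regions, Tgif1 without Tgif2 or Smad3 in 631, and all 5 factors in 662. Smad3 without a Tgif factor was present in 128. Seen from each list, the Hdac1-Nanog regions held 1734 of 16398 Hdac1 peaks (10.6%, 10.1 to 11.1) and 1781 of 16833 Nanog peaks (10.6%, 10.1 to 11.1).

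**Figure D1:**
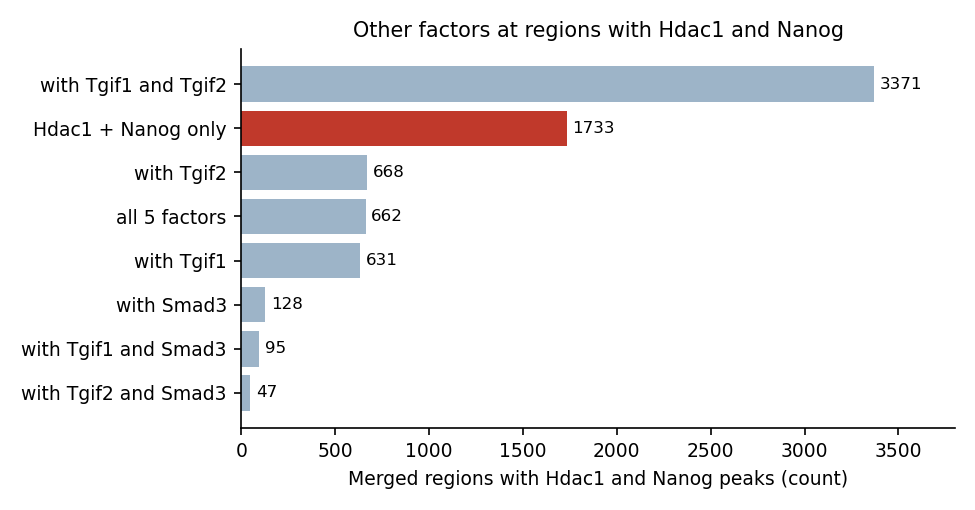
Number of merged regions with Hdac1 and Nanog peaks (horizontal axis, count) by the other factors called in them (vertical axis). The 1733 regions with Hdac1 and Nanog only, in red, are fewer than the 3371 that also hold Tgif1 and Tgif2 and more than any class with a single further factor.

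Among regions without Tgif1, Tgif2 or Smad3, Nanog was present at 1733 of 3571 Hdac1 regions (48.5%, 46.9 to 50.2). Where a Tgif factor was called, Nanog was present at 5474 of 12286 Hdac1 regions (44.6%, 43.7 to 45.4). The same split looked different from the side of Nanog. Hdac1 was present at 1733 of 8887 Nanog regions without Tgif or Smad3 (19.5%, 18.7 to 20.3) and at 5474 of 7093 Nanog regions with a Tgif factor (77.2%, 76.2 to 78.1). From the side of Hdac1 the shares were thus close to each other, and from the side of Nanog they were far apart. No test of either difference was made.

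The median Hdac1-Nanog region was 901 bp wide (891 to 915). A merged region spans all of its peaks, so regions that must also hold Tgif1 and Tgif2 peaks are wider by the way they were made (median 1409 bp), and can join more Nanog peaks. Exactly 1 Hdac1 and 1 Nanog peak made up 1686 of the 1733 regions (97.3%). A further 45 held 1 Hdac1 and 2 Nanog peaks, 1 held 1 Hdac1 and 3 Nanog peaks, and 1 held 2 of each. Regions with 2 or more Nanog peaks were 2.71% (2.05 to 3.59) here and 9.82% (8.86 to 10.9) where both Tgif factors were present. For regions with several peaks of a factor, the peak with the highest fold enrichment is used below.

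The Hdac1 peak was the wider of the pair in 1416 regions (81.7%, 79.8 to 83.5), with a median of 848 bp (839 to 858) against 652 bp (640 to 665) for Nanog. The Nanog peak lay wholly inside the Hdac1 peak in 936 regions (54.0%) and the Hdac1 peak wholly inside the Nanog peak in 121 (6.98%). In the remaining 676 neither highest-fold peak lay wholly inside the other, and at chr4:139148688-139150584, among them, these peaks shared no base. The overlap was rarely marginal. Summed over all Hdac1 and Nanog peaks of a region, it had a median of 615 bp and a minimum of 240 bp. No Hdac1-Nanog region thus owed its place to a few shared bases.

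Hdac1 peaks in these regions combined an above-median fold enrichment with few tags. Fold enrichment is the ratio of a peak to its background as the peak caller of the authors gave it, and tags are the reads counted in it. Median Hdac1 fold was 12.0 (11.6 to 12.3; quartiles 9.22 and 16.7), at percentile 60.5 of the Hdac1 list. Median Hdac1 tag number was 37 (37 to 38; quartiles 32 and 47), at percentile 27.3, close to the list minimum of 28. Regions that also held Tgif1 and Tgif2 had a median Hdac1 fold of 11.6 and a median of 60 tags. Hdac1 peaks alone in their region had a fold of 10.3 and 35 tags, and those with all 5 factors 13.7 and 84. By tags, only 24 of the 1733 regions (1.38%, 0.932 to 2.05) had an Hdac1 peak in the top 10% of the list, against 647 of 3371 (19.2%) with both Tgif factors. By fold the shares were 14.4% and 11.5%.

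Nanog peaks in the same regions were ordinary for their list. Their median fold was 25.3 (24.0 to 26.6; quartiles 15.97 and 42.88), at percentile 53.7, and their median tag number was 34 (33 to 35; quartiles 23 and 54), at percentile 58.0. With Tgif1 and Tgif2 present the medians were 22.03-fold and 38 tags, and for Nanog alone 23.8-fold and 24 tags. With all 5 factors they were 58.5-fold and 136 tags. Per 1 kb of peak, Hdac1 held a median of 44.3 tags in the Hdac1-Nanog regions, 50.6 with both Tgif factors and 39.4 where Hdac1 was alone, while Nanog held 53.0, 52.3 and, alone, 44.8.

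**Figure D2:**
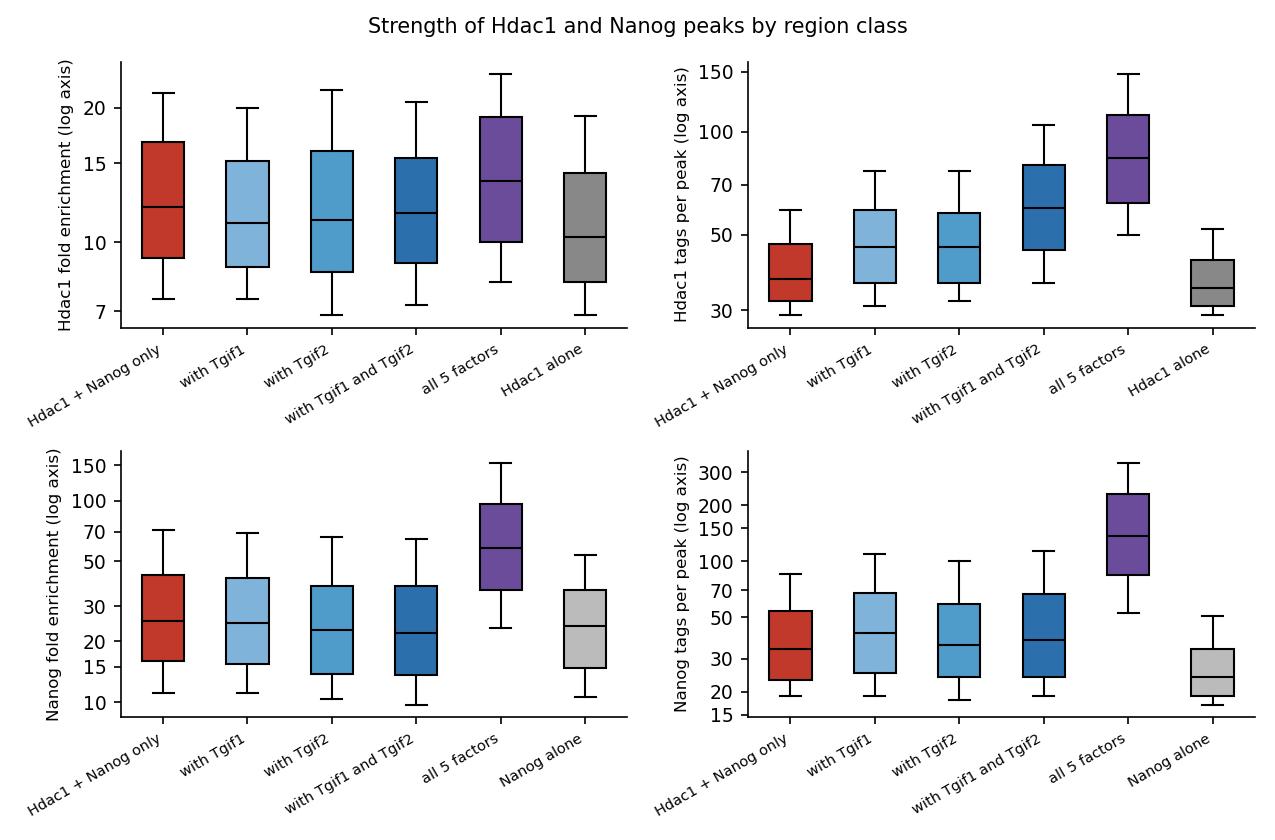
Fold enrichment (left) and tags per peak (right) of Hdac1 peaks (top) and Nanog peaks (bottom), on log axes, by region class. Boxes run from the lower to the upper quartile with the median as a line, and whiskers reach the percentiles 10 and 90 of the regions. The red box of the Hdac1-Nanog regions has a median of 37 Hdac1 tags, between 35 for Hdac1 alone and 60 with both Tgif factors, and its median Nanog fold of 25.3 is below the 58.5 with all 5 factors.

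Some of these orders were the same on every chromosome, and others were not. Chromosomes share the same libraries, so agreement between them is not replication. Median Hdac1 tags were lower in Hdac1-Nanog regions than with both Tgif factors on 19 of 19 chromosomes, and median Nanog fold was higher on 19 of 19. For Hdac1 fold the Hdac1-Nanog regions were higher on only 12 of 19 chromosomes, and for Nanog tags they were lower on 13 of 19, so neither of those orders was steady. Compared with Hdac1 alone, Hdac1 fold was higher on 19 of 19 chromosomes, as were Nanog tags compared with Nanog alone.

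Of the tags, fold and width of both peaks, the share of the 7335 regions that were Hdac1-Nanog regions varied most with Hdac1 tags. In 5 bins of these regions by Hdac1 tags, 50.5% (48.1 to 53.0) lacked Tgif1, Tgif2 and Smad3 in the lowest bin, from 28 to 36 tags. The share was 33.5% in the next bin, then 18.3% and 9.60%, and 2.81% (2.07 to 3.8) in the highest bin, at 80 tags or more. By Hdac1 fold the same share stayed between 22.4% and 25.2% in all 5 bins. By Nanog tags it was 28.6% in the lowest bin and 10.5% (9.01 to 12.2) in the highest, and by Nanog fold it lay between 20% and 26.7%. It also fell with width, from 43.9% to 5.93% for the Hdac1 peak and from 33.9% to 9.34% for the Nanog peak.

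Width and tags rise together, so the 7335 regions were divided into 3 bins by each. At 28 to 42 Hdac1 tags, 46.2% of regions with an Hdac1 peak up to 878 bp lacked the other factors, as did 40% of those from 879 to 1212 bp and 44% of the 25 wider ones. At 43 to 64 tags the shares were 22.3%, 19.7% and 19.1% from narrow to wide, and at 65 tags or more 4.08%, 4.70% and 4.92%. At similar tag number the share therefore changed little with width, whereas at similar width it fell several-fold with tags. With Nanog tags the share had no single direction. At 28 to 42 Hdac1 tags it was 46.7% with up to 30 Nanog tags, 45.9% with 31 to 60 and 36.7% (32.5 to 41.1) with 61 or more. At 43 to 64 Hdac1 tags the same shares were 17.4%, 24.5% and 18.1%, and at 65 or more they were 5.84%, 6.53% and 3.5%. The smallest listed Tgif1 and Tgif2 peaks had 30 and 33 tags, and the part of a limit on weak peaks in the missing Tgif calls was not tested.

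**Figure D3:**
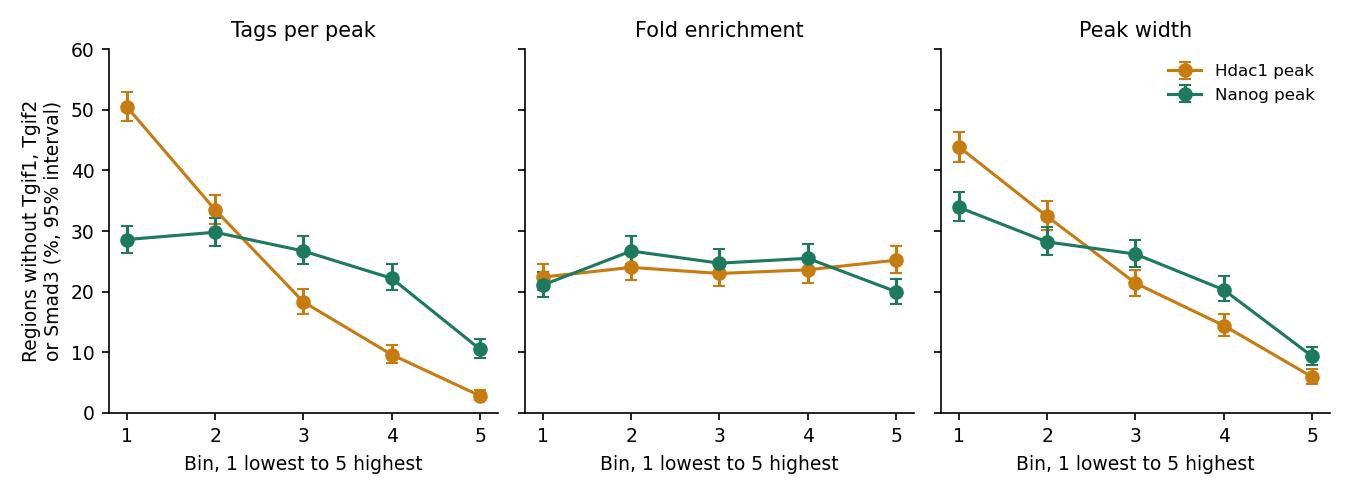
Share of the 7335 regions with Hdac1 and Nanog that lacked Tgif1, Tgif2 and Smad3 (vertical axis, percent, with 95% Wilson intervals) in 5 bins, from lowest to highest, of tags, fold enrichment and width of the Hdac1 and Nanog peaks. The share falls from 50.5% to 2.81% with Hdac1 tags and stays between 22.4% and 25.2% with Hdac1 fold.

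Regions with a single Tgif paralog had Tgif peaks of few tags. In the 631 regions with Hdac1, Nanog and Tgif1, the Tgif1 peak had a median of 41 tags (39 to 41) and 12.2-fold enrichment, at percentiles 27.5 and 42.6 of its list. In the 668 with Tgif2 the Tgif2 peak had 44.5 tags (43 to 46) and 12.9-fold enrichment, at percentiles 28.7 and 43.5. Where both paralogs were called, the medians were 64 tags for Tgif1 and 69 for Tgif2. The Hdac1 peak of both single-paralog classes had a median of 46 tags, between the 37 of the Hdac1-Nanog regions and the 60 with both paralogs.

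Among regions without Tgif1, Tgif2 or Smad3, stronger peaks of either factor carried the other more often. The share of Hdac1 regions with Nanog rose from 34.8% (31.4 to 38.4) in the lowest of 5 bins of Hdac1 fold to 60.1% (56.5 to 63.6) in the highest. By Hdac1 tags it rose from 41.3% to 59.5%. The share of Nanog regions with Hdac1 rose from 9.07% (7.85 to 10.5) at 16 to 18 Nanog tags to 37.2% (34.9 to 39.5) at 43 or more. By Nanog fold it was level at 17.1% to 19.5% over 4 bins and reached 25.9% in the highest.

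Within the Hdac1-Nanog regions the folds of both factors were positively related. Across the 1733 regions Spearman's rho was 0.44 between Hdac1 fold and Nanog fold and 0.26 between their tags, as descriptions, since all points share 1 pair of libraries. When only peaks at or above their list's median fold were merged, 1086 regions met the rule and the rho of their folds was 0.14. That setting cuts off the lower folds of both factors, and the narrower range can by itself lower rho. With all peaks merged, the rho for fold was 0.36 in regions with both Tgif factors and 0.26 in those with all 5. Tags and fold of the same peak rose together for Nanog (rho 0.63) and not for Hdac1 (rho -0.10). Tags rose with peak width for both, with rho 0.67 for Hdac1 and 0.55 for Nanog. Both peaks were above their list's median fold in 697 regions (40.2%, 37.9 to 42.5), and above their list's median tags in 291 (16.8%). With both Tgif factors these shares were 32.1% by fold and 48.8% by tags, and with all 5 they were 65% and 90.8%. Both peaks were in the top 10% of their lists in 72 regions by fold (4.15%, 3.31 to 5.20) and in 6 by tags (0.346%). Here the shares were 3.03% by fold and 4.63% by tags with both Tgif factors, and 13.3% and 37.8% with all 5.

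**Figure D4:**
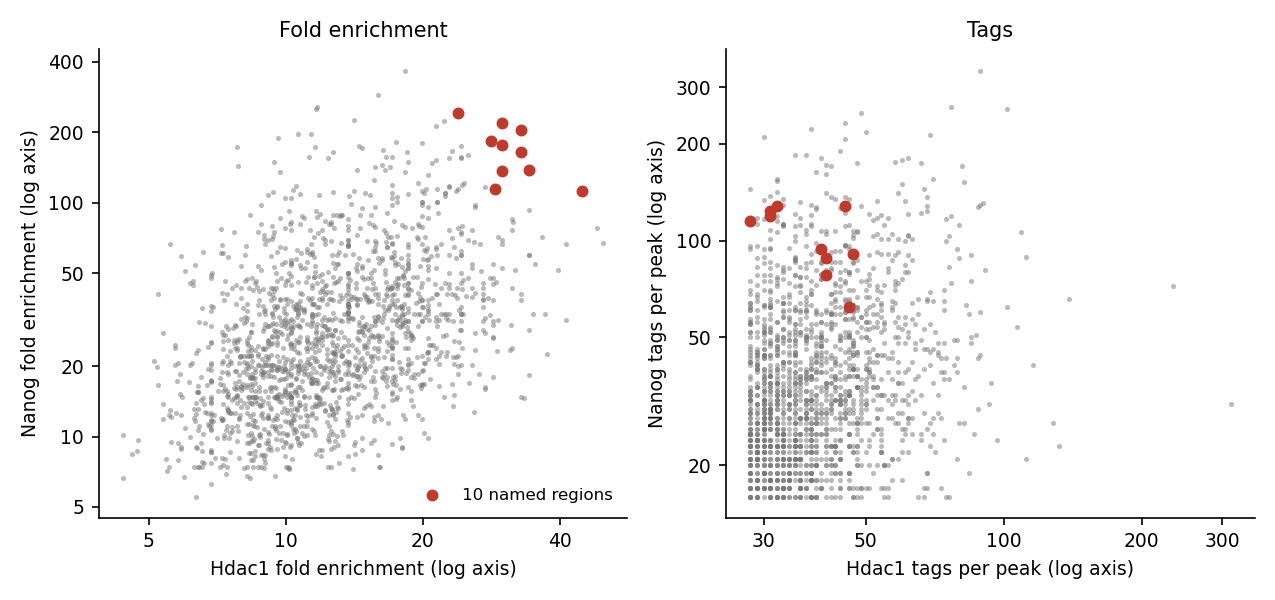
Nanog against Hdac1 in each of the 1733 Hdac1-Nanog regions, as fold enrichment (left) and as tags per peak (right), all axes logarithmic. The 10 regions with the highest sum of fold percentiles, in red, lie at the upper right by fold, and at 28 to 47 Hdac1 tags by tags.

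Summits of the Hdac1 and Nanog peaks lay close together. The median distance was 44 bp (41 to 47), with quartiles of 20 and 93 bp, and 1541 regions (88.9%) had summits within 200 bp. Within 50 bp lay 965 regions (55.7%, 53.3 to 58.0), where 49.8% of all 7335 regions with Hdac1 and Nanog did so. The median was 59 bp (56 to 62) in regions with both Tgif factors and 48 bp (41 to 54) with all 5. The former was longer than in the Hdac1-Nanog regions on 19 of 19 chromosomes. With both Tgif factors, a Tgif peak can join Hdac1 and Nanog peaks that share no base (minimum overlap 0 bp, against 240 bp). Longer distances can thus enter that class by the way its regions were made, on every chromosome. How much this adds was not tested. The Nanog summit lay inside the Hdac1 peak in 1715 regions (99%), against 97% of all regions with Hdac1 and Nanog.

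The longer distance in regions with both Tgif factors was not present among regions with single peaks and similar Hdac1 width. Restricted to 1 Hdac1 and 1 Nanog peak and to Hdac1 widths between the quartiles of the Hdac1-Nanog regions, 737 to 1021 bp, the medians were 46 bp (42 to 49, 859 regions) without and 43 bp (39 to 49, 971 regions) with Tgif1 and Tgif2. With all 5 factors the median was 35 bp (28 to 51) in 133 regions. This restriction was chosen after the distances had been seen, and Nanog width was not matched. With single peaks of any Hdac1 width, the medians were 43.5 bp (41 to 46) without and 55 bp (51 to 59) with Tgif1 and Tgif2. Peaks of higher fold had closer summits. In 4 bins of Hdac1-Nanog regions by Hdac1 fold, the median fell from 62 bp (49 to 71) to 36 bp (30 to 40). By Nanog fold it fell from 56 bp (49 to 65) to 37 bp (32 to 40), and by Nanog tags from 55 bp to 40 bp. By Hdac1 tags it stayed between 41 and 46 bp. These bins were not matched for width, and Hdac1 peaks of higher fold were narrower (rho -0.27).

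**Figure D5:**
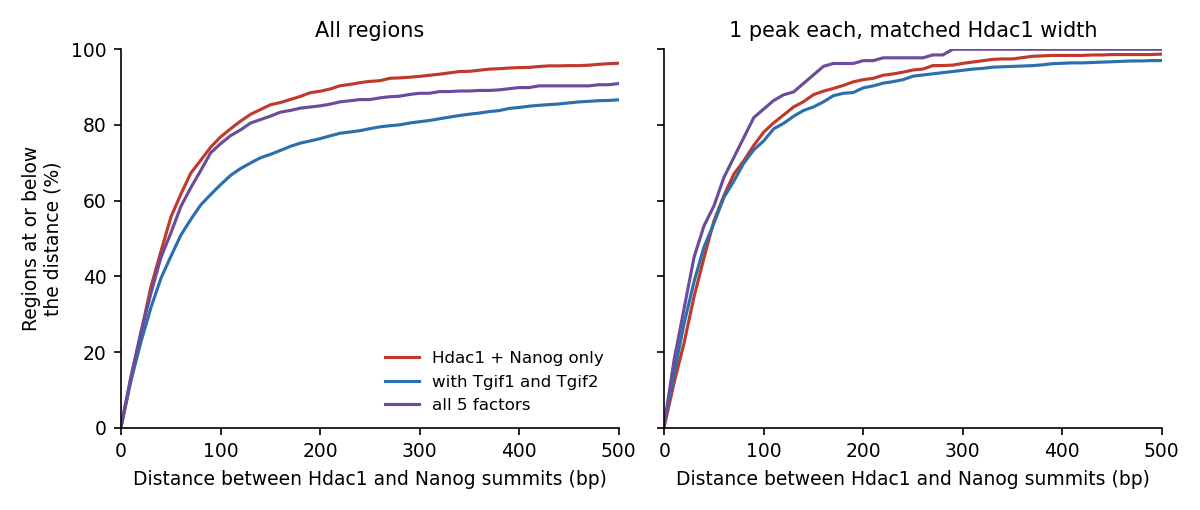
Cumulative share of regions (vertical axis, percent) by the distance between Hdac1 and Nanog summits (horizontal axis, bp), for all regions of 3 classes (left) and for regions with 1 peak each and an Hdac1 width of 737 to 1021 bp (right). The curve of regions with Tgif1 and Tgif2 lies below that of the Hdac1-Nanog regions on the left (medians 59 and 44 bp) and close to it on the right (43 and 46 bp).

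Although no Tgif or Smad3 peak overlapped them, many Hdac1-Nanog regions had one in the neighbourhood. The median gap to the nearest Tgif1, Tgif2 or Smad3 peak was 16.3 kb, and 478 regions (27.6%, 25.5 to 29.7) had one within 5 kb. The gap was at most 1 kb in 154 regions (8.89%, 7.64 to 10.3) and at most 500 bp in 95 (5.48%). For Hdac1 alone the median gap was 10.9 kb and the share within 5 kb was 33.2% (31.1 to 35.4), and for Nanog alone they were 20.9 kb and 24.5% (23.5 to 25.5). The Hdac1-Nanog regions therefore lay between the regions of each factor alone. By factor, the median gap was 24.0 kb to Tgif1, 21.8 kb to Tgif2 and 427 kb to Smad3, whose list held only 1199 peaks on these chromosomes.

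Within 5 kb, neighbouring merged regions of any kind were about as frequent as over all regions, while groups of 5 or more were less frequent. Another region lay within 5 kb of 729 (42.1%, 39.8 to 44.4), close to the 42.2% of all 32551 regions, whereas regions with Tgif1 and Tgif2 had one in 55.8% and regions with all 5 factors in 66.8%. When regions up to 12.5 kb apart were taken as a group, 279 Hdac1-Nanog regions (16.1%, 14.4 to 17.9) fell in groups of 5 or more, compared with 20.4% of all regions and 31.6% of those with both Tgif factors. The nearest region held Nanog in 60% (57.6 to 62.2) of cases, compared with 50.6% over all regions. Other classes had shares on both sides of 60%: 65.4% with all 5 factors, 62.1% for Nanog alone and 54% with both Tgif factors. The nearest region held Tgif1 or Tgif2 in 57.5% (55.2 to 59.8), compared with 66.4% over all regions, 57% for Nanog alone and 68.8% with both Tgif factors. An Hdac1-Nanog region was nearest in 8.77% (7.53 to 10.2), compared with 5.61% over all regions, 6.95% for Nanog alone and 10.2% with Smad3 only.

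The median distance to the nearest other Hdac1-Nanog region was 254 kb, and 204 (11.8%) had one within 20 kb. The same values were not computed for other classes, so neither few nor many neighbours is read from them. In groups joined over 12.5 kb, 82 groups held 2 Hdac1-Nanog regions and 10 held 3. One of the latter, chr3:83386566-83395552, spanned 8.99 kb with 3 Hdac1-Nanog regions and 1 Nanog-only region and no Tgif or Smad3 peak. Another, chr2:153406156-153478780, spanned 72.6 kb with 17 regions, of which 13 held a Tgif factor. The densest window of 1 Mb was on the same part of chromosome 2, with 8 Hdac1-Nanog regions between 152497280 and 153465791. These groups were named after their values were seen.

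All 19 autosomes carried Hdac1-Nanog regions, from 45 on chromosome 19 to 176 on chromosome 2. As a share of the regions with Hdac1 and Nanog there, they ranged from 17.3% (14.5 to 20.6) on chromosome 11 to 31.2% (26.4 to 36.4) on chromosome 6. Chromosome 1, with the most regions of this kind (672), had 19.6% (16.8 to 22.8). The other 16 chromosomes lay between 21% and 27.8%, and no order is read among them.

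The strongest Hdac1-Nanog regions by the fold of both peaks had nearly coincident summits. Their Hdac1 tags were few, as in all 1733 regions (median 37, quartiles 32 and 47). Coordinates are those of mm9 as deposited. The highest sum of fold percentiles was at chr5:56513116-56513802, where the Hdac1 peak had 32.8-fold enrichment and 31 tags and the Nanog peak 205-fold and 124 tags, with summits 2 bp apart. At chr5:87779145-87779913 the Hdac1 peak reached 29.97-fold with 31 tags and the Nanog peak 220-fold with 119 tags, 5 bp apart. At chr15:66272847-66273575 the values were 32.9-fold and 41 tags for Hdac1 and 165-fold and 88 tags for Nanog, 6 bp apart. In each of these 3 the Hdac1 peak thus had no more than 41 tags despite a fold above percentile 98 of its list.

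The following 7 by the same ranking were chr17:62458307-62459078, chr11:17621822-17622740, chr2:106590765-106591687, chr2:49227005-49227877, chr13:47038378-47039380, chr18:84938006-84938703 and chr17:85112979-85113680. Over all 10, Hdac1 fold ran from 24.0 to 44.8 with 28 to 47 tags, and Nanog fold from 112 to 241 with 62 to 128 tags. Summits were 2 to 50 bp apart in 9 of them and 108 bp apart in chr17:85112979-85113680. The nearest Tgif or Smad3 peak was 11.8 kb away from chr13:47038378-47039380 and 43.9 kb or more away from the other 9, at the farthest 1592.2 kb from chr5:56513116-56513802. Of these 10, 9 were thus farther from Tgif and Smad3 peaks than the median region with its 16.3 kb. Regions leading by a single fold, named next, lay on both sides of that median. Their gaps were 8.03, 1.23 and 76.6 kb by Hdac1 fold, and 3.96, 5.74 and 22.5 kb by Nanog fold.

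Single measures picked out other places. Hdac1 fold was highest at chr4:104886931-104887531 (49.9-fold, 50 tags), followed by chr18:14832778-14833660 (48.4-fold, 65 tags) and chr2:49227005-49227877 (44.8-fold, 46 tags), with Nanog folds of 67.2, 77.9 and 112. Nanog fold was highest at chr17:48051239-48052254 (368-fold, 222 tags), chr10:69895624-69896863 (289-fold, 207 tags) and chr19:31180343-31181141 (256-fold, 164 tags). There the Hdac1 peaks had 18.26-, 15.98- and 11.71-fold enrichment. By fold, the leading Nanog places therefore had Hdac1 peaks of middle to upper strength, at percentiles 86.9, 80.6 and 58.5. By tags these Hdac1 peaks were weaker, with 38, 45 and 39, below the list median of 47.

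Hdac1 tags led to broad and weakly enriched places instead. The top position, chr17:15126407-15131345, had 313 Hdac1 tags over 4938 bp at only 5.81-fold and a Nanog peak of 7.92-fold. The next, chr17:15159201-15162815, lay on the same stretch with 234 tags over 3614 bp, 4.39-fold for Hdac1 and 6.64-fold for Nanog, and chr4:146867288-146868918 followed with 139 tags at 9.47-fold, 160 bp from the nearest Tgif or Smad3 peak. Both chr17 places were under percentile 4 of the Hdac1 list and of the Nanog list by fold. No input or mock level was set beside these places, so how many of their tags are background is not known here. Nanog tags were highest at chr3:148882101-148883786 (338 tags, 77.2-fold), chr16:26961727-26962695 (261 tags, 107-fold) and chr6:20636310-20637936 (256 tags, 89.5-fold), with 89, 77 and 102 Hdac1 tags. Unlike the leading places by Hdac1 tags, these were well enriched for Nanog.

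At the edge of the rule, the smallest overlap of Hdac1 and Nanog peaks was 240 bp at chr18:69939286-69940422, then 256 bp at chr19:46318963-46319765 and 263 bp at chr16:29771318-29772195. Their Nanog peaks had few tags, 18, 18 and 20, and middle folds of 21.8, 28.7 and 24.7, at percentiles 45.7, 60.3 and 52.5 of the list. On the other side, chr1:155232076-155234193 was left out because a Tgif2 peak of 8.44-fold and 71 tags shared 11 bp with its peaks. A Tgif1 peak of 23.2-fold and 37 tags shared 25 bp at chr19:14737718-14739124, and a Tgif2 peak of 14.8-fold and 39 tags shared 124 bp at chr5:122508954-122511457. Such edge cases were few: of 1411 regions with Hdac1, Nanog and exactly 1 peak of Tgif1, Tgif2 or Smad3, 2 had an overlap under 100 bp, and the median overlap was 721 bp. Neither genes nor DNA letters are named for these places, since a genome of build mm9 was not used here.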

How the data were processed

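Peaks of Tgif1, Tgif2, Hdac1, Nanog and Smad3 were used as deposited, 1 library and 1 list each, and the mock library was not analysed here. Per the submitters' processing notes, reads were aligned with BWA 0.5.9-r16 and peaks called with MACS on mm9. The control, threshold and depth are not given in the sources used here. The deposited lists have no header. From their values, a column with 2 decimals was read as the authors' fold enrichment (a ratio), a whole number as the tag count of the peak, and 3 equal columns inside each peak as its summit position. Whether positions count from 0 or 1 is not stated, so coordinates carry an uncertainty of 1 bp. Tags in peaks summed to 43227 for Smad3 and to between 821817 and 1347497 for the other lists, and this is not library depth.

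Peaks sharing at least 1 bp were merged (33152 regions on all chromosomes and contigs, 32551 on chromosomes 1 to 19). Shares have 95% Wilson intervals and medians 95% intervals from order statistics. Percentiles are ranks within a whole list. Bins were cut at quantiles, with ties kept together. Merging and gaps were checked against bedtools 2.31.1 and on simulated data. Python 3.11.15, NumPy 2.4.6, pandas 2.3.3, SciPy 1.17.1 and matplotlib 3.10.9 were used.

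The regions, comparison classes and alternatives were chosen with earlier results of these data known. The named regions follow a rule: the 10 with the highest sum of Hdac1 and Nanog fold percentiles, the 3 highest by fold and by tags of each factor, and 3 on each side of the overlap rule. Shares near transcription start sites, genes near the regions and their sequence content had been planned and were not run, since the reference tables used here are of another build (GRCm38.p6).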

Additional observations from a re-analysis of the deposited data

How the results depend on the processing

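The alternatives changed how peaks enter or join, and the cause of each move was not tested. Among the alternative values, 69 stayed within the interval of the value reported (for the number of regions, within 1.5 times) and 20 moved. Asking for an overlap of 50% of the shorter peak, dropping Smad3 from the rule, adding chromosome X, averaging over a region's peaks and keeping regions with 1 peak of each factor moved none of their values. Nor did 2 settings chosen after the data were seen, which were to remove the top 1% of each list by tags and to restrict summit distances by Hdac1 width (46 bp). Averaging over peaks and keeping single peaks could change little, since 1686 of the 1733 regions held 1 peak of each factor. When peaks under the median fold of their list were dropped, Tgif peaks included, 1086 regions met the rule, of which 697 overlapped a region of the original 1733. The medians were then 15.1-fold and 41.5 tags for Hdac1, 43.2-fold and 54.5 tags for Nanog, and 37 bp between summits, with 62.2% within 50 bp. A Tgif or Smad3 peak lay within 5 kb of 15.8%, and the rho of both folds was 0.14. The median chromosome had 39.2% of its Hdac1 and Nanog regions in the class, against 23.6%. Dropping these peaks raises the folds and leaves fewer Tgif and Smad3 peaks by construction. The narrower range of folds can by itself lower rho. Joining by summits within 200 bp gave 39 Hdac1 tags, a 40 bp summit distance and 61.2% within 50 bp. This setting leaves out single pairs of peaks with summits over 200 bp apart, so it cuts off long distances by construction. A Tgif or Smad3 peak lay within 5 kb of 40.2%, and the chromosome median was 29.8%. Overlapping Tgif or Smad3 peaks with summits over 200 bp away count as neighbours there, so the setting itself can raise the 5 kb share. The share within 5 kb was 32.4% with peaks set to 250 bp on each side of the summit and 22.7% with gaps of up to 500 bp joined. The limit itself gave 8.89% within 1 kb and 55.3% within 20 kb. Peak midpoints lay 82.5 bp apart, against 44 bp for summits. Leaving out a replicate was not possible, and sequence and start-site results were not run. No paired analysis was possible because each factor had 1 library and no replicate. Library depth is not known here, so whether a missing Tgif peak lies under the detection limit could not be measured.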

Other observations

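On the X chromosome, which the rule leaves out, 34 of 68 merged regions with Hdac1 and Nanog lacked Tgif1, Tgif2 and Smad3 (50.0%, 95% Wilson interval 38.4 to 61.6). The highest share on an autosome was 31.2% (26.4 to 36.4) on chromosome 6. The difference was not tested. On unplaced and random contigs, 4 of 7 such regions did so.

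Smad3 without a Tgif factor was called at 128 regions with Hdac1 and Nanog. Their Nanog peaks had a median of 51.6-fold enrichment (43.5 to 62.1) and 78 tags (69 to 96), against 25.3-fold and 34 tags in the regions without Smad3. Their Hdac1 peaks had 15.1-fold enrichment (14.1 to 16.8) and 44 tags (42 to 49), against 12.0-fold and 37. Summits of Hdac1 and Nanog lay a median of 33.5 bp apart (26 to 47) there. The Nanog and Hdac1 values of these 128 regions are descriptions of 1 library each and were not tested.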
